A study of Mus musculus with 2 samples.

Results

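The S100 genes encode small calcium-binding proteins, and 10 of them were followed in whole kidney of mice with and without cystic disease: S100a1, S100a4, S100a6, S100a8, S100a9, S100a10, S100a11, S100a13, S100a16 and S100g. They were chosen by name, and all probe sets that the platform annotation gives them were taken. Of the 10 genes, 9 had probe sets of their own (13 in all), out of 18193 named genes on the array, and 7 had a measurable signal. S100a11 was read only by a probe set that the annotation assigns to 3 genes at once, and the probe sets of S100a8 and S100a9 lay under the detection floor on both arrays.

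The control kidney, +/+,inv-deltaC::GFP, had normal inv alleles, and the cystic kidney, inv/inv, inv-deltaC::GFP, was homozygous for the inv mutation, which models nephronophthisis type 2. Both groups carried the transgene, a truncated inversin that lacks the C-terminus and is joined to GFP, green fluorescent protein. Its promoter is not given in the sources used here. All mice were 4 weeks old by the series design, and the label of the cystic array adds an age of 28 days and a female sex. Total RNA was read on 1 Affymetrix array per group. The design text speaks of 2 kidneys, without saying how many animals gave the RNA of an array. With 1 array per group there is no replicate check and no test, and the number of arrays limits the precision.

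S100 proteins carry a pair of calcium-binding EF-hand motifs, mostly act as dimers, and change shape on binding calcium so that they can grip a target protein. Several, such as S100a6, S100a10 and S100a11, are made by epithelia and stromal cells and bind annexins at membranes. S100a8 and S100a9 together form calprotectin, a major cytosolic protein of neutrophils and monocytes. S100g, also named calbindin-D9k, is a vitamin D-dependent calcium buffer of intestinal and distal kidney epithelium.

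The values are MAS5 signals, a linear intensity per probe set. The median signal of each array served as its floor (control 55.4, cystic 61.9). A gene under the floor on both arrays was not measured, and a gene under it on 1 array gives a bound. Log2 ratios are cystic minus control, a gene takes the value of its brightest probe set, and "rose" and "fell" mean a difference of at least 2-fold. Where 4694 genes had several probe sets above the floor, the log2 ratios within a gene scattered with a pooled SD of 0.29, a technical spread within the same RNA. Of 12015 measured genes, 848 (7.06%) rose and 454 (3.78%) fell, so that 65.1% of the changed genes were higher. After dividing each array by its median signal (median centring), 609 rose and 672 fell, a higher share of 47.5%, and the median log2 ratio of all genes went from 0.09 to -0.07.

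The libraries were checked against their labels. For Invs, the mutated gene, the brightest probe set read 118 on the control and 15.9 on the cystic array. The cystic value lies below the floor of 61.9, so Invs gives only a bound, at least 1.91-fold lower. Its dimmer probe sets, with control and cystic signals of 36.0 and 22.1 and of 5.4 and 54.2, reached neither floor and give no direction. Whether the transgene adds to the Invs signals was not tested. All 9 kidney markers with a probe set of their own were above the floor on both arrays. Xist, the RNA of the inactive X chromosome in females, had signals of 387 and 57.4 at its brightest probe set and of 282 and 2.3 at another, so that it was under the floor on the array labelled female. The Y-linked genes Uty (206 and 198), Eif2s3y (132 and 142) and Kdm5d (152 and 194) were above the floor on both arrays. The control array thus had both Xist and the Y-linked genes above its floor, and the cystic array only the Y-linked genes. Whether the control RNA came from both sexes was not tested. These values go against the female label of the cystic array, and any difference in sex between the arrays cannot be told apart from the genotype.

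In the cystic kidney S100a6 rose 5.95-fold and S100g fell to a signal 3.83-fold lower, while S100a1, S100a10, S100a13 and S100a16 differed by less than 2-fold. S100a6 had a log2 ratio of 2.57, against 0.04 to 0.78 for those 4 members. S100a4 gave only a bound, at least 1.63-fold higher, and S100a11 had no value of its own. Over the 7 measured members, with S100a4 at its bound, the median log2 ratio was 0.70, which is that bound itself, beside 0.09 over all measured genes. Past 2-fold there was 1 member of 7 in each direction, beside backgrounds of 7.06% higher and 3.78% lower. At 1.5-fold, a limit chosen after the values were seen, 5 of the 7 were higher and 1 was lower, beside backgrounds of 16.4% and 10.8%. Among the 5 was S100a4, which was measured only through the cystic array and could only come out higher. Under median centring the count of 5 was 2, S100a6 and S100a10, with S100a4, S100a13 and S100a16 then at 0.54, 0.56 and 0.52.

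**Figure D1:**
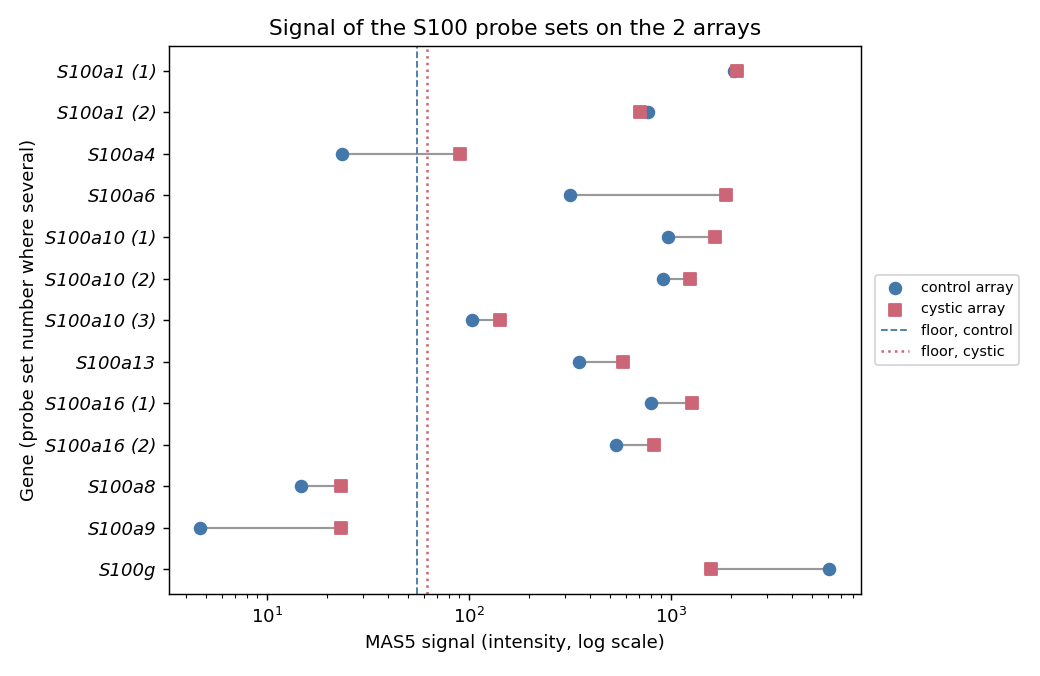
Signal of the 13 S100 probe sets on the control array (circles) and the cystic array (squares); the horizontal axis is the MAS5 intensity on a log scale, each row is a probe set, and the vertical lines are the floors of 55.4 and 61.9. S100a6 goes from 316 to 1882.5 and S100g from 6101 to 1594, S100a8 and S100a9 lie left of both floors, and the symbols of S100a1 nearly coincide.

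S100a6, or calcyclin, is made by fibroblasts and many epithelia and binds annexins and the ubiquitin ligase adaptor Cacybp. The only probe set read 316 on the control and 1882.5 on the cystic array. The cystic value is the high one by far, and of 12015 measured genes 49 (0.408%) had a higher log2 ratio. No second probe set was there to repeat the measurement. Across the scalings and floors tried the log2 ratio stayed between 2.41 and 2.62.

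S100a10, also called p11, has lost the ability to bind calcium and forms a complex with annexin A2 that carries plasminogen activators and ion channels at the cell surface. Its brightest probe set went from 972 to 1668, a log2 ratio of 0.78. The other probe sets went from 922 to 1255 and from 104 to 143, with log2 ratios of 0.44 and 0.46. All 3 were higher in the cystic kidney and none reached 2-fold.

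S100a16, a broadly expressed member, went from 797 to 1276 at its brightest probe set and from 539 to 832 at the other. These are log2 ratios of 0.68 and 0.63, which differ by less than the spread between probe sets. S100a13 takes part in the release of growth factors that lack a signal peptide, such as Fgf1. It went from 351 to 579 at its only probe set, a log2 ratio of 0.72.

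S100a4 is used as a fibroblast marker, is also made by leukocytes, and binds non-muscle myosin. The control array read 23.7, under its floor, and the cystic array 90.3, which makes it at least 1.63-fold higher. The bound leaves unknown whether the difference passed 2-fold. It was at least 2.51-fold with the floor at the 40th percentile of each array.

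S100a1, best known from heart muscle and also found in kidney tubules, had the smallest difference of the measured members. Its probe sets went from 2073 to 2133 and from 770 to 704, with log2 ratios of 0.04 and -0.13. The sign of the brighter one was negative with median centring (-0.12) and positive with quantile normalization (0.22), so no direction is given for it.

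The probe set annotated to S100a11, its pseudogene S100a11-ps and Gm12854 together went from 1574 to 4897, a log2 ratio of 1.64. It cannot be assigned to 1 of the 3 genes and was left out of all counts.

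S100a8 and S100a9 were low on both arrays. S100a8 read 14.8 on the control and 23.4 on the cystic array, and S100a9 read 4.7 and 23.4. All of these lie under the floors of 55.4 and 61.9, so no direction is read from them. Of 14 other granulocyte markers with a probe set, leaving out Lcn2, 10 had both signals under the floors, including the granule protein genes Camp, Elane, Mpo, Ltf and Ctsg and the chemokine receptor gene Cxcr2. Over the whole array, 12015 of 18193 named genes were measured. Of the remaining markers, Csf3r went from 62.3 to 79.1 and Mmp9 from 92.9 to 74.8. Itgam went from 17.5, under the floor, to 78.0, and Ngp from 60.6 to 48.4, under the floor. None of the 14 was at 0. Their control signals ranged from 1.9 to 92.9 and their cystic signals from 1.8 to 79.1, and their sums were 418 and 493. Lcn2, which neutrophils and injured tubules both make and which is also in the injured epithelium list, went from 34.7 to 4610.3.

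S100g was the member that fell. The only probe set went from 6101 to 1594, a log2 ratio of -1.94. The control value is the high one, and of the 12015 measured genes 46 (0.383%) had a lower log2 ratio. Under the scalings tried the log2 ratio lay between -2.10 and -1.75. In whole kidney RNA, fewer cells of a type and less RNA per cell cannot be told apart.

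**Figure D2:**
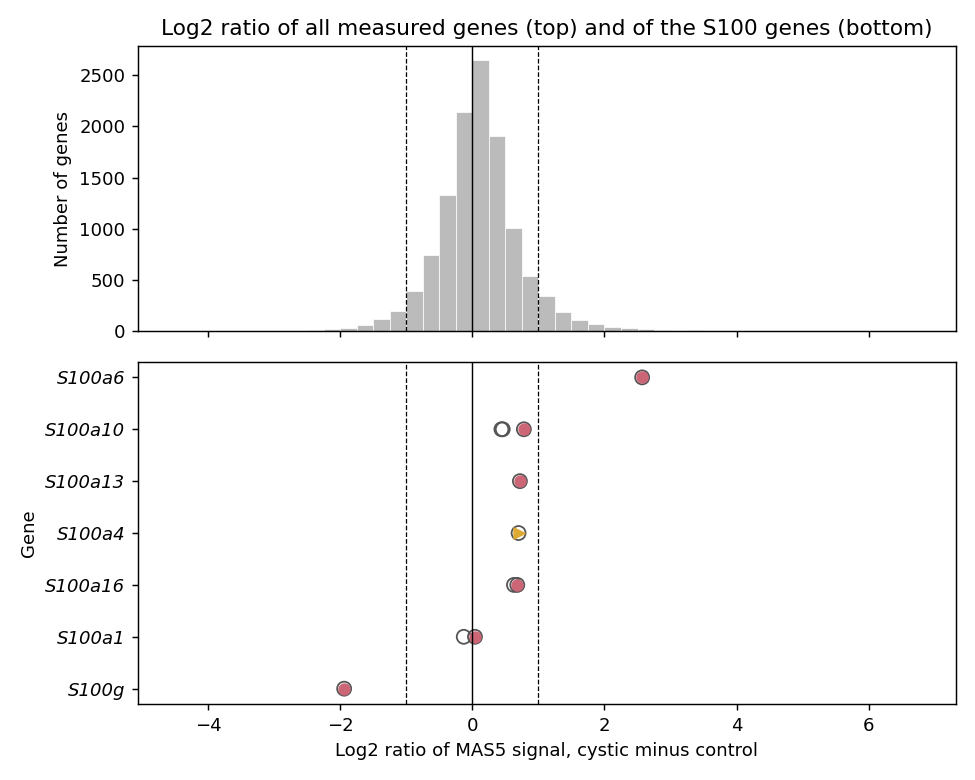
Number of measured genes by log2 ratio (top, bars 0.25 wide) and log2 ratio of the 7 measured S100 genes (bottom; filled circles, the brightest probe set; open circles, every probe set; triangle, a bound); dashed lines mark 2-fold. S100a6 at 2.57 and S100g at -1.94 lie outside the dashed lines, the bound of S100a4 is at 0.70, and the other members lie between 0.04 and 0.78.

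The members sit in clusters in the genome. S100a1, S100a13, S100a16, S100a4, S100a6, S100a8 and S100a9 lie in this order in a run of S100 genes on chromosome 3, with S100a11 and S100a10 further along it, while S100g is on the X chromosome. S100a6, which rose, lies between S100a4, which gave only a bound, and S100a8, which was under the floor on both arrays. RefSeq promoter windows on GRCm38.p6, from 250 bases before to 50 after each annotated start, were found for 9 of the 10 genes. Stretches from 85 bases before the start to 15 after it are shown for the member that rose, the member that fell, and the S100a4, S100a8 and S100a9 genes, to set the sequence beside the signal. Capitals mark the letters TATAAA, the core of a TATA box.
S100a6, chr3:90612809-90612908, plus strand: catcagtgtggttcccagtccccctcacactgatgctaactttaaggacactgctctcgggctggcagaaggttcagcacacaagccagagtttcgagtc
S100g, chrX:162964585-162964684, minus strand: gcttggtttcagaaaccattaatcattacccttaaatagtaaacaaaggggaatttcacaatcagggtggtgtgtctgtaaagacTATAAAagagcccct
S100a4, chr3:90603685-90603784, plus strand: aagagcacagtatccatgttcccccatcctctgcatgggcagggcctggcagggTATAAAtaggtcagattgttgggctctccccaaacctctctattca
S100a8, chr3:90668986-90669085, plus strand: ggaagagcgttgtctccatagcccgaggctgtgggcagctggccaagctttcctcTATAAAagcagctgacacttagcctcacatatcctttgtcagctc
S100a9, chr3:90695707-90695806, minus strand: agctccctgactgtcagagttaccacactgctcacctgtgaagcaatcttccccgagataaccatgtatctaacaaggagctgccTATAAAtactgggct

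TATAAA, searched on both strands, was found in the windows of 4 of the 9 genes: S100a4 and S100a8, where it begins at positions -31 and -30 from the start, and S100a9 and S100g, where it begins at the annotated start itself (position 1). It was in 13.6% of all 32851 windows. These 4 genes are the member that fell, the pair under the floor and the member under the floor in the control. S100a6, S100a1, S100a13, S100a16 and S100a11 had no such letters in their windows. TGANTCA, the site of AP-1 factors, reads the same on both strands and was found in a window of S100a16 and at positions -136 and -38 of S100a11, beside 7.81% of all windows. GGGCGG, a GC box, was found for S100a11, S100a16 and S100a9, beside 35.7% of all windows. No match of 1 motif overlapped a match of another, and a match is a description of sequence only.

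S100a1 and S100a13 are transcribed away from each other, and their windows share 204 bases. The 104 bases between their annotated starts lie upstream of both genes, and are shown because the genes differed in their values, with log2 ratios of 0.04 for S100a1 and 0.72 for S100a13.
S100a1 and S100a13, chr3:90514331-90514434, plus strand: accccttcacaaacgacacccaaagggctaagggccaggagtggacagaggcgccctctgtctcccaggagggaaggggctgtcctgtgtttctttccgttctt

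Proteins that S100 members bind, and plasminogen activation genes tied to S100a10, were taken as a list of 25 genes, of which 16 were measured. Of these, 5 rose and none fell, beside backgrounds of 7.06% and 3.78%, with a median log2 ratio of 0.74 beside 0.09 over all measured genes. The 5 were 2 without probe sets whose names end in a letter code such as _a_at, and 6 with the median over probe sets. Annexin A2 (Anxa2), the partner of S100a10, went from 864 to 2979, a log2 ratio of 1.79, while a dimmer probe set gave a bound of 0.29. Annexin A1 (Anxa1), which S100a11 binds, went from 260 to 1111, a log2 ratio of 2.10. Ahnak, a giant scaffold protein that binds the complex of S100a10 and annexin A2, rose with 1.67, Anxa5 with 1.35, and Plaur, the urokinase receptor, with 1.21. Anxa6 had 0.89, which differs from the 0.78 of S100a10 by less than the spread between probe sets. At their brightest probe sets Anxa1, Anxa2 and Anxa5 had larger log2 ratios than S100a10.

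At their brightest probe sets the other measured partners differed by less than 2-fold or gave bounds under it. Cacybp, the partner of S100a6, went from 673 to 713, a log2 ratio of 0.08 beside the 2.57 of S100a6. Myh9, the heavy chain of the non-muscle myosin that S100a4 binds, had 0.85. The other Myh9 probe sets above the floor on both arrays passed 2-fold, with 1.03, 1.13 and 1.14. Plat, the tissue plasminogen activator, had 0.92, and 0.14 at a dimmer probe set. Fgf1, exported together with S100a13, went from 376 to 197, a log2 ratio of -0.93, and Syt1, of the same export complex, had a bound of -0.58. Il1a was under the floor on both arrays.

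Receptors and co-receptors of extracellular S100 proteins were mixed, and of 13 genes 12 were measured. Of these, 5 rose and 1 fell, beside backgrounds of 7.06% and 3.78%, with a median log2 ratio of 0.75. Among the 5, Mcam, Cd68 and Tlr2 were under the floor in the control. They were measured only through the cystic array, so they could only come out higher. The backgrounds hold genes of this kind too. The 1 that fell was 0 with the median over probe sets and without probe sets with a letter code. Ager, which encodes RAGE, the best known S100 receptor, went from 80.7 to 81.7, a log2 ratio of 0.02. Tlr4, the receptor of calprotectin, was at least 1.71-fold higher (32.6 to 95), and its co-receptor Cd14 rose 7.85-fold, from 128 to 1001. Mcam, an adhesion molecule bound by calprotectin, was at least 5.33-fold, Cd68, which is also in the macrophage list below, at least 4.33-fold and the bacterial sensor Tlr2 at least 3.24-fold higher, and Alcam rose with 1.43, with 0.25 to 1.19 at its other probe sets above the floor on both arrays. The scavenger receptor Cd36 fell by 1.61 on the log2 scale where it was brightest, and its next probe set had -0.94. Basigin (Bsg), a receptor of S100a9, had -0.33.

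Of 19 listed genes of distal calcium handling 16 were measured, 5 fell and none rose, beside backgrounds of 3.78% lower and 7.06% higher, with a median log2 ratio of -0.83 beside 0.09 over all measured genes, and 12 of the 16 were below 0. With median centring 8 fell. Calbindin-D28k (Calb1), the other calcium buffer of the distal nephron, went from 4810 to 1179, a log2 ratio of -2.03 beside the -1.94 of S100g, and its other probe sets above the floor gave -2.36 and -2.97. Parvalbumin (Pvalb), a buffer of the distal convoluted tubule, went from 835 to 213 (-1.97), and the growth factor Egf from 6965 to 2294 (-1.60). Klk1, a kallikrein of the connecting tubule, had -1.33 and -1.31 at its brighter probe sets and 0.14 and 0.29 at others, and Kl, the co-receptor of a phosphate-regulating hormone, had -1.18. At their brightest probe sets the 3 calcium buffers S100g, Calb1 and Pvalb thus differed from each other by less than the spread between probe sets.

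The transporters and regulators in the same list differed less. Slc8a1, the sodium-calcium exchanger that extrudes calcium, had a log2 ratio of -0.82, and the calcium pump Atp2b1 had 0.09. Trpv6, a calcium entry channel, was at least 1.34-fold higher with a signal of 74.3 close to the floor. Vdr, the vitamin D receptor, which acts on S100g, had -0.85 (853 to 474), and the vitamin D enzymes Cyp27b1 and Cyp24a1 had -0.62 and 0.86. Slc12a3, the salt transporter that marks the distal convoluted tubule, had -0.94, and Cldn8, a claudin of the distal nephron, 0.11.

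**Figure D3:**
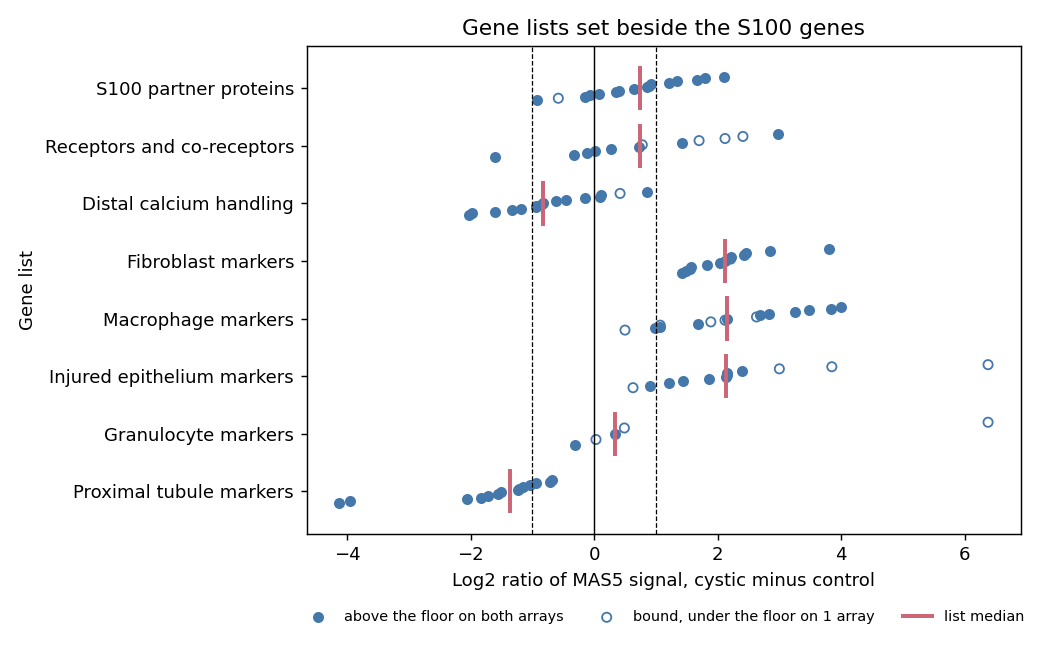
Log2 ratio, cystic minus control, of the measured genes of 8 lists (filled circles, above the floor on both arrays; open circles, bounds; red bars, list medians; dashed lines, 2-fold; the vertical offset within a list only separates the points). Distal calcium handling (median -0.83) and proximal tubule markers (-1.37) lie to the left, and fibroblast (2.12), macrophage (2.16) and injured epithelium (2.14) markers to the right.

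Markers of other cell types moved with these genes. Over all measured genes, 7.06% rose and 3.78% fell. Fibroblast markers rose in 13 of 13 measured genes, with a median log2 ratio of 2.12 and summed signals of 7735 (control) and 34368 (cystic). Macrophage markers rose in 13 of 15, with a median of 2.16 and sums of 2412 and 11924. Injured epithelium markers rose in 10 of 12, with a median of 2.14 and sums of 7635 and 28528. Among the markers that rose, Thy1, Cd68, Fcgr1, Fcer1g, Mpeg1, Lcn2, Havcr1 and Krt19 were under the floor in the control. At their brightest probe sets these were measured only through the cystic array and could only come out higher. Another Fcgr1 probe set was above the floor on both arrays, with a log2 ratio of 0.41. No marker with a probe set in these lists was at 0. All 3 lists were higher where S100a6 and S100a4 were higher, and their part in those values was not tested. Proximal tubule markers fell in 11 of 14, with a median of -1.37 and sums of 61875 and 25361, beside the lower S100g, and their part in it was not tested.

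Other members of the family were low for the most part. S100a14, an epithelial member next to S100a13 on the chromosome, was under the floor in the control (37.0) and reached 191.6 in the cystic kidney, at least 3.46-fold higher. S100a5 had signals of 58.8 and 62.7, close to the floors, and S100a3, S100a7l2 and S100b were under the floor on both arrays.

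**Figure D4:**
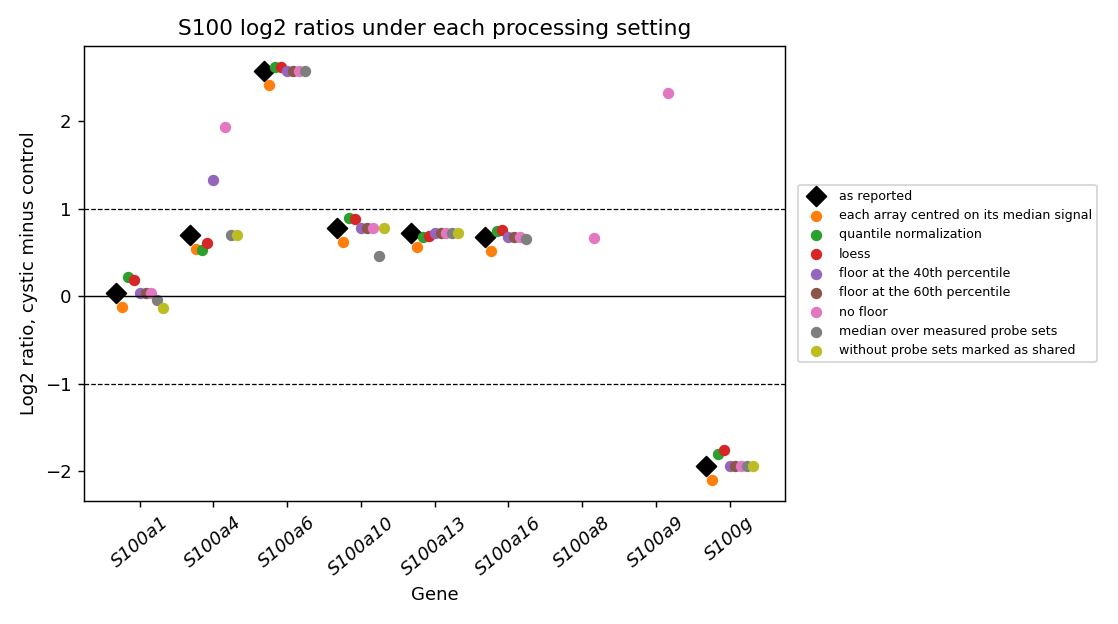
Log2 ratio of each S100 gene (cystic minus control, vertical axis) as reported (diamonds) and under the 8 alternative settings (circles); dashed lines mark 2-fold. S100a6 stays between 2.41 and 2.62 and S100g between -2.10 and -1.75, S100a1 falls on both sides of 0, and S100a8 and S100a9 have a value only with no floor.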

How the data were processed

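Kidney RNA was labelled with biotin and hybridised to 1 Affymetrix array per group. The authors deposited 1 intensity per probe set, a linear signal made with MAS5, per the submitters' processing notes. The sources used here give no version, scaling target or detection calls. That scaling was kept, since the 2% trimmed means of the arrays were 178 and 181. The 64 control probe sets were left out, and 45037 remained. Of these, 34945 named 1 gene in the platform annotation, 932 several and 9160 none; symbols were updated through a RefSeq table of GRCm38.p6, used only for names and neighbours. Values under the floor (the 50th percentile of each array) were raised to it before log2 ratios were taken. The steps ran in Python 3.11.15 and were tested on simulated data. No p-value is given. The S100 genes, the gene lists and the 1.5-fold limit were chosen with earlier results of these data known. All S100 genes are named, and from the other lists members by size of difference or by their tie to an S100 gene. Alternatives were 3 scalings, 3 floors, the median over probe sets, and leaving out probe sets whose names end in a letter code such as _s_at, _x_at or _a_at.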

Additional observations from a re-analysis of the deposited data

How the results depend on the processing

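No paired analysis was possible because each group had 1 array. S100g was the only measured S100 gene that fell under all 8 alternatives tried, and S100a6 rose under each of the 7 that could read it. The annotation names only S100a6 for its single probe set, whose name ends in _a_at. Without probe sets with such a letter code S100a6 had no value. The S100 genes counted as higher were then 0 at 2-fold and 3 at 1.5-fold. At 2-fold the count was 2 with the floor at the 40th percentile, where S100a4 was added, and 3 with no floor (S100a6, S100a4 at 1.93 and S100a9 at 2.32). At 1.5-fold it was 2 with median centring. S100a4 was not measured with the floor at the 60th percentile, nor S100a16 without the probe sets with a letter code. With no floor, 2093 genes in all were higher and 1666 lower at 2-fold. S100a10 had a log2 ratio of 0.46 with the median over probe sets. The median of the S100 partners was 0.74 as reported. It was 0.44 with the median over probe sets, 0.40 with no floor and 0.38 without probe sets with a letter code. The median of the macrophage markers, reported as 2.16, was 2.63, 2.64 and 2.68 under these settings. The granulocyte median, 0.34 over 5 measured genes as reported and 0.08 to 0.34 under the other alternatives, was 2.91 with the floor at the 60th percentile, where 2 of its genes, Mmp9 and Lcn2, were measured. Signal over background limits S100a4, S100a8 and S100a9, and 1 array per group limits all values.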

Other observations

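The 5 nearest measured genes on each side of the run from S100a1 to S100a9, of the pair S100a11 and S100a10, and of S100g made 28 genes, of which 2 rose and 1 fell, near the backgrounds of 7.06% and 3.78%, with a median log2 ratio of -0.08. Next to the first run, Sprr1a, a cornified envelope precursor, rose with 1.28 and Lor, which encodes loricrin, fell with -1.0, while Chtop, Snapin and Ilf2 on the other side had 0.27, 0.41 and 0.08. Near S100g, Vegfd, a lymphatic growth factor, rose with 1.30, and Cltrn, a membrane protein of the proximal tubule, went from 5768 to 3421 (-0.75). The nearest genes to S100g itself, Ctps2 and Ap1s2, had 0.11 and 0.70 beside its -1.94.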
